A study of Arabidopsis thaliana with 6 samples.

Results

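The UGT73 glycosyltransferases are described here by 5 of the 22746 non-control probe sets of the Affymetrix ATH1 array, which stand for 6 of the 14349 Arabidopsis thaliana genes that the annotation pairs with a probe set. Members were taken by their annotation to a set list of UGT73 genes, with no filter on signal. That list was set with earlier results of these data known, and 3 other probe sets annotated UGT73 lie outside it. UGT73B1, UGT73B4, UGT73B5 and UGT73C1 have a probe set each, while UGT73B2 and UGT73B3 share one, so the signals of that pair cannot be separated. Whole Col-0 seedlings were grown in liquid medium for 13 days, with 10 seedlings in a flask of 100 ml under 16 h of light a day. The TNT group (3 arrays) received 60 µM trinitrotoluene, an explosive and soil pollutant, carried in 60 µl of the solvent dimethylformamide (DMF), and the DMF group (3 arrays) received the same volume of solvent alone. RNA was taken after 6 h. All plants were wild type, and the comparison asks how their transcripts differ after exposure to TNT.

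UDP-glycosyltransferases (UGTs) move a sugar, usually glucose, from a UDP-sugar to a small acceptor molecule, which makes it more soluble and lets the plant store it in the vacuole or build it into the cell wall. Plants treat foreign compounds in steps. TNT is reduced at its nitro groups, the hydroxylamino and amino products are joined to sugars by UGTs, and glutathione transferases provide a parallel route. In Arabidopsis the UGT73 family holds enzymes of flavonols, hormones and toxins, and UGT73B4 and UGT73C1 are known to glucosylate reduction products of TNT.

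One array bears on every value that follows. Over 13648 probe sets in the upper part of the signal range, TNT replicate 2 correlated at r = 0.878 and 0.893 with TNT replicates 1 and 3, at 0.974 with DMF replicate 2, and at 0.93 and 0.944 with DMF replicates 1 and 3, while the r between TNT replicates 1 and 3 was 0.969. These correlations are across probe sets, which are not independent. The array labelled TNT replicate 2 thus lay nearer to the DMF arrays than to its own group, and whether its exposure and its label are as stated is not settled by the files. The members' results are therefore given over all 6 arrays, which is the planned comparison, and without TNT replicate 2. Leaving out an array that was seen to lie near the other group narrows the spread within TNT, so p-values of the smaller comparison can be too small. A further limit is the low end of the scale: the highest control probe set for a bacterial gene, used below as a floor, stood at 7.76, 11.9 and 12.1 on TNT replicates 1, 2 and 3 and at 6.34, 14.3 and 9.19 on DMF replicates 1, 2 and 3. Whether each replicate was a flask of its own is not stated in the labels, and the p-values cover only the variation among these 6 samples, which could be technical. Seedlings were measured whole, so a change in the share of an organ and a change in RNA per cell cannot be told apart.

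All 5 UGT73 probe sets had signals on TNT replicates 1 and 3 that lay above all DMF arrays, and far above for all but UGT73C1. UGT73C1 had 29.42 and 19.35 there, against DMF signals under floors of 6.34 to 14.3. On TNT replicate 2 the 5 probe sets lay close to the DMF arrays. UGT73B1, UGT73B5 and the UGT73B2 and UGT73B3 probe set were yet above DMF replicate 2 there. UGT73B4 and UGT73C1 were under the floor on both TNT replicate 2 and DMF replicate 2. Over all 6 arrays no member passed limma's test at an adjusted p of 0.05, and neither did any other probe set (0 of 22746, or 0%). At an unadjusted p under 0.05, all 5 members were higher with TNT in limma, against 3.41% of all probe sets (775); 1503 were at that threshold in either direction. Without TNT replicate 2 all 5 members rose at a limma adjusted p under 0.05, against 2.31% of all probe sets that rose (525) and 4.14% called in either direction (942). None of the 3 other UGT73 probe sets was called in that comparison. Members were chosen with earlier results of these data known. Such shares, here and below, therefore describe the members and do not test the family.

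**Figure D1:**
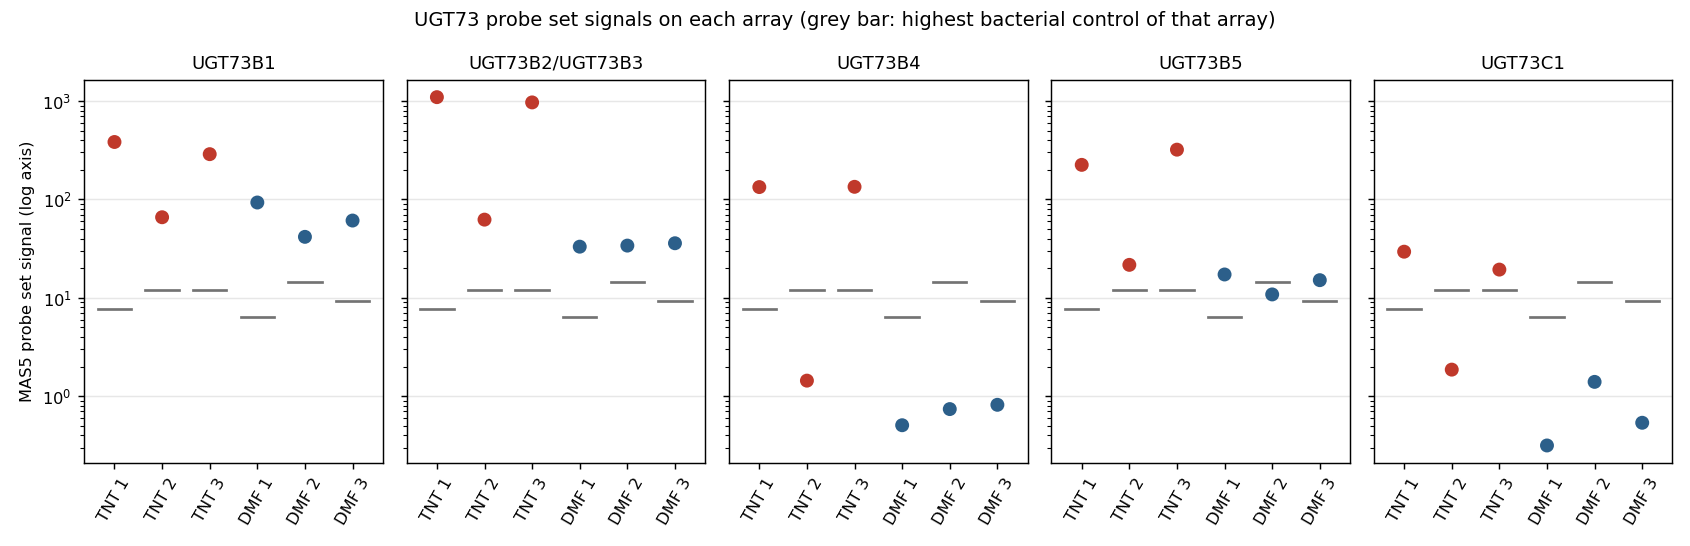
MAS5 signals of the 5 UGT73 probe sets on a log axis, with 1 point for each TNT array (red) and each DMF array (blue); grey bars mark the highest bacterial control of that array. TNT replicates 1 and 3 stand above all DMF arrays in each panel, TNT replicate 2 lies near them, and all DMF points of UGT73B4 and UGT73C1 are under the floor.

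The probe set shared by UGT73B2 (AT4G34135), a flavonol glucosyltransferase, and UGT73B3 (AT4G34131), a close relative linked to redox balance during pathogen attack, had the most even baseline. Its signal was 1095, 62.3 and 968.2 on TNT replicates 1, 2 and 3, against 33.1, 33.9 and 35.9 on DMF replicates 1, 2 and 3. Every TNT array exceeded every DMF array, and even the lowest TNT signal stood clear of the narrow DMF range. The log2 signal averaged 8.66 ± 2.34 with TNT and 5.10 ± 0.06 with DMF (SD, n = 3 each). Over all 6 arrays the log2 difference was 3.56 ± 0.94 (SE; 95% interval 1.42 to 5.70), with a limma adjusted p of 0.588. Without TNT replicate 2 the rise was 30.0-fold, a log2 difference of 4.91 ± 0.15 (SE), and its limma adjusted p of 5.07e-06 belonged to the smallest p (rank 1) among the 22746 probe sets. Which of the pair of genes carried the signal was not resolved by this probe set.

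UGT73B5 (AT2G15480), which like UGT73B3 is linked to redox balance in the response to pathogens, was likewise high on TNT replicates 1 and 3. Signals were 224.5, 21.6 and 320.4 on TNT replicates 1, 2 and 3, against 17.3, 10.8 and 15.1 on DMF replicates 1, 2 and 3. The groups did not overlap, although TNT replicate 2 exceeded the highest DMF array only narrowly, and DMF replicate 2 lay under its floor. The log2 mean was 6.86 ± 2.11 with TNT and 3.82 ± 0.35 with DMF (SD, n = 3 each). The log2 difference over all 6 arrays was 3.04 ± 0.87 (SE; 95% interval 1.04 to 5.03; limma adjusted p = 0.629), and without TNT replicate 2 it was 4.25 ± 0.29 (SE; limma adjusted p = 0.000146), a 19.0-fold rise. With DMF replicate 2 set to its floor, the rise without TNT replicate 2 is at least 17.3-fold.

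UGT73B1 (AT4G34138), a family member with activity toward flavonoids and other phenolics, was above the floor on all 6 arrays, and its groups overlapped. TNT replicates 1, 2 and 3 had signals of 383.4, 65.9 and 288.4, against 93.0, 41.6 and 61.0 on DMF replicates 1, 2 and 3. TNT replicate 2 thus lay above DMF replicates 2 and 3 and below DMF replicate 1. The log2 mean was 7.60 ± 1.36 with TNT and 5.95 ± 0.58 with DMF (SD, n = 3 each). Its log2 difference over all 6 arrays was 1.65 ± 0.60 (SE; 95% interval 0.27 to 3.03; limma adjusted p = 0.698). Without TNT replicate 2 it rose 5.38-fold, a log2 difference of 2.43 ± 0.31 (SE; limma adjusted p = 0.00367).

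UGT73B4 (AT2G15490), which forms glucose conjugates of reduced TNT, was not above the floor on any DMF array. Signals were 133.5, 1.44 and 134.3 on TNT replicates 1, 2 and 3, against 0.507, 0.739 and 0.817 on DMF replicates 1, 2 and 3. TNT replicates 1 and 3 were nearly equal and far above their floors, while TNT replicate 2 stood under its floor with the DMF arrays, so its place above them is an order among values with no measured order. With the DMF arrays set to their floors, TNT replicates 1 and 3 alone put the rise of UGT73B4 at 14.2-fold or more. The same calculation over all 6 arrays gave 3.14-fold. That value is no lower bound, since TNT replicate 2 entered it with a signal under its floor. The limma adjusted p was 0.629 over all 6 arrays and 0.000344 without TNT replicate 2, for fitted log2 differences of 5.45 ± 1.58 and 7.63 ± 0.60 (SE). These fitted values rest on DMF signals under the floor and are no measure of the fold.

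UGT73C1 (AT2G36750), which also acts on reduced TNT and on cytokinins, was also under the floor on all DMF arrays. Its signals were 29.4, 1.86 and 19.3 on TNT replicates 1, 2 and 3, against 0.316, 1.40 and 0.537 on DMF replicates 1, 2 and 3. Only TNT replicates 1 and 3 exceeded their floors. From these 2 arrays and the DMF floors, the rise comes to 2.53-fold or more. Over all 6 arrays that calculation gave 1.08-fold, which is again no lower bound because TNT replicate 2 was under its floor. Fitted log2 differences of 4.04 ± 1.11 and 5.27 ± 0.87 (SE), with limma adjusted p of 0.594 over all 6 arrays and 0.0136 without TNT replicate 2, again rest on values under the floor. With signals under the floor set to it, UGT73C1 had a log2 difference of 1.34 without TNT replicate 2 and lost the call (limma adjusted p = 0.128), while the other 4 members kept theirs.

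An offset of 16 added to each signal before log2 damps the differences among low values. On that scale and without TNT replicate 2, the log2 difference was 4.38 for the UGT73B2 and UGT73B3 probe set, 3.23 for UGT73B5, 3.17 for UGT73B4, 2.15 for UGT73B1 and 1.26 for UGT73C1. All 5 passed in limma, with adjusted p between 6.79e-05 and 0.0125, against 1.91% of all probe sets that rose on this scale. Ranked by this difference, the shared probe set was number 5 of 22746, UGT73B5 number 21, UGT73B4 number 23, UGT73B1 number 62 and UGT73C1 number 248. The same scale over all 6 arrays gave differences of 3.13, 2.26, 2.13, 1.45 and 0.87 in the same order of members, and limma adjusted p between 0.719 and 0.752.

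**Figure D2:**
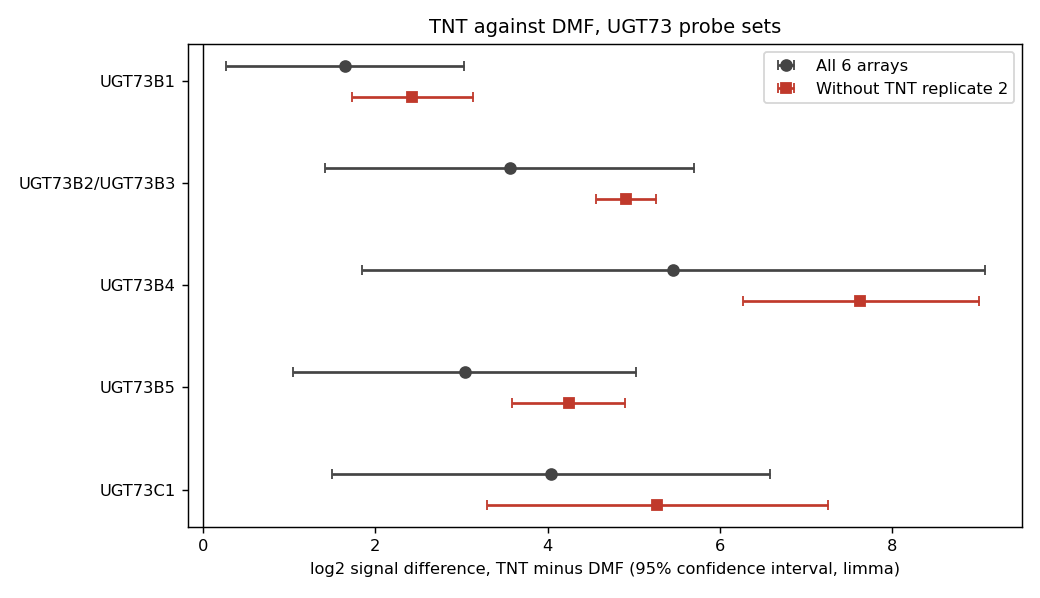
Log2 signal differences, TNT minus DMF, of the 5 UGT73 probe sets with 95% confidence intervals from limma, over all 6 arrays (grey circles) and without TNT replicate 2 (red squares). Every estimate is above 0, from 1.65 for UGT73B1 to 5.45 for UGT73B4 over all 6 arrays; for UGT73B4 and UGT73C1 the estimates rest on DMF signals under the floor.

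Same-numbered arrays of the TNT and DMF groups deviated together from their group means (r = 0.54, 0.47 and 0.42 across 13648 probe sets for numbers 1, 2 and 3), so each pair was also read on its own. All 5 members were higher with TNT in all 3 pairs, against 15.3% of all probe sets. The pair numbered 1 gave log2 differences of 5.05 for the UGT73B2 and UGT73B3 probe set, 3.70 for UGT73B5 and 2.04 for UGT73B1. In the pair numbered 3 they were 4.76, 4.41 and 2.24 in that order of members. The pair numbered 2 gave 0.88, 1.00 and 0.66 for these members, all positive and far smaller. The size of the 1.00 for UGT73B5 was not measured, since its DMF replicate 2 signal of 10.8 was under the floor of 14.3. In that pair all 5 members were higher on the TNT array, against 42.5% of all probe sets, but UGT73B4 and UGT73C1 were under the floor on both of its arrays. With the offset, the pair numbered 2 differed by 0.65 for the shared probe set, 0.51 for UGT73B1, 0.49 for UGT73B5, 0.06 for UGT73B4 and 0.04 for UGT73C1. With the replicate number as a block in limma over all 6 arrays, the members had adjusted p between 0.281 and 0.307, and none passed.

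**Figure D3:**
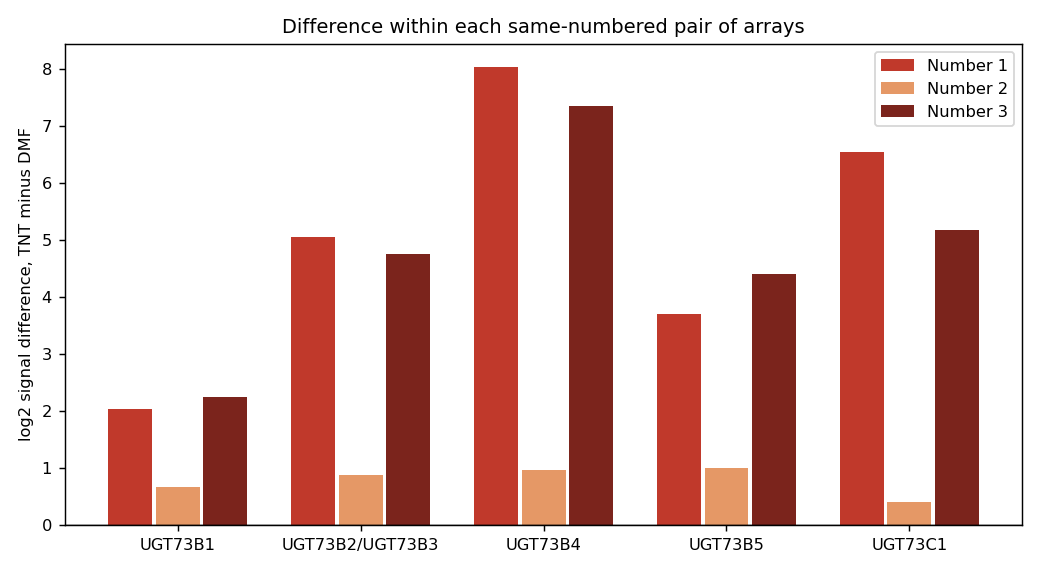
Log2 signal difference, TNT minus DMF, within each pair of arrays that share a replicate number, for the 5 UGT73 probe sets. Bars for numbers 1 and 3 are tall and those for number 2 reach 1.00 at most. All bars are above 0. For number 2, those of UGT73B4 and UGT73C1 come from signals under the floor, and that of UGT73B5 from a DMF signal under it.

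Groups did not overlap for 4 of the 5 members, with every TNT array above every DMF array, against 4.71% of all probe sets. For these 4 an exact permutation test over the arrays (two-sided) gave p = 0.1, the smallest that 3 against 3 arrays allow, and for UGT73B1 it gave p = 0.2. For UGT73B4 and UGT73C1 the order between TNT replicate 2 and the DMF arrays lies under the floor, so measured separation holds for 2 members, UGT73B5 and the shared probe set. For all members but UGT73C1, TNT replicates 1 and 3 differed little beside the distance to DMF. For UGT73C1 that distance is known only as at least 2.53-fold, without TNT replicate 2. UGT73C1 was 1.52 times, UGT73B1 1.33 times and the shared probe set 1.13 times as high on TNT replicate 1 as on TNT replicate 3. UGT73B5 was 1.43 times as high on TNT replicate 3 as on TNT replicate 1, and UGT73B4 was level at 1.01 times. Across the 6 arrays the log2 signals of the members correlated pairwise between 0.836 (UGT73B1 with UGT73C1) and 0.998 (UGT73B4 with the shared probe set) over 10 pairs, a description over arrays that share treatment, with TNT replicates 1 and 3 the highest arrays for every member.

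The members fall into 3 groups of neighbouring loci in the TAIR10.1 reference table. UGT73B3, UGT73B2 and UGT73B1 follow each other with no other protein-coding gene between them, and UGT73B5 and UGT73B4 are likewise adjacent, with the annotated span of UGT73B4 inside that of UGT73B5. Whether the probe set of either gene also matches transcripts of the other was not examined, so their signals are uncertain to that extent. UGT73C1 stands at the edge of a run of UGT73 loci, of which UGT73C6 and DOGT1 were not analysed here, and the 2 probe sets of the others did not pass. UGT73C2 (AT2G36760), the next gene, had signals of 1.70, 2.49 and 0.392 on TNT replicates 1, 2 and 3, against 2.07, 3.15 and 2.60 on DMF replicates 1, 2 and 3, all under the floor. A probe set shared by the following loci AT2G36770 and AT2G36780, had signals of 15.6, 1.21 and 15.5 on TNT replicates 1, 2 and 3, against 6.00, 1.07 and 5.14 on DMF replicates 1, 2 and 3. Its DMF signals were all under the floor, and it did not pass over all 6 arrays (limma adjusted p = 0.986) or without TNT replicate 2 (limma adjusted p = 0.208). Genes next to the clusters with a probe set of their own did not pass either; these neighbours were looked up after the members' values had been seen. Without TNT replicate 2 the log2 difference was 0.17 for SWC2, beside UGT73C1, 0.77 for AT4G34140 and 0.83 for AT4G34150, beyond UGT73B1, and -0.68 for AT2G15500, beyond UGT73B4.

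Besides UGT73C2, 2 further probe sets annotated UGT73 lie outside the members, and none of these 3 passed in either comparison. The probe set shared by AT2G36770 and AT2G36780, described above, carries no UGT73 symbol here and is not counted among them. UGT73C7 (AT3G53160) had signals of 20.3, 10.2 and 17.1 on TNT replicates 1, 2 and 3, against 5.34, 6.46 and 6.79 on DMF replicates 1, 2 and 3. Its groups did not overlap, but all DMF signals and that of TNT replicate 2 were under their floors, so the order among them was not measured. The log2 difference of UGT73C7 was 1.31 ± 0.45 (SE) over all 6 arrays and 1.60 without TNT replicate 2 (limma adjusted p = 0.669 and 0.125). UGT73D1 (AT3G53150) gave 20.1, 3.24 and 21.8 on TNT replicates 1, 2 and 3, against 24.2, 11.9 and 17.9 on DMF replicates 1, 2 and 3, which overlap. Its log2 difference was -0.62 over all 6 arrays and 0.28 without TNT replicate 2, so the sign turned with that array, whose signal was under its floor, as was that of DMF replicate 2.

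The other UGT genes with a probe set of their own number 40. Their median log2 difference over all 6 arrays was 0.04, with 22 positive, beside -0.04 over all probe sets and 3.56 over the 5 members. The members' median was 2.66 with signals set to the floor and 2.13 with the offset, beside 0.04 and -0.02 over all probe sets. When TNT replicate 2 was left out, the median was 0.07 over the 40, -0.10 over all probe sets and 4.91 over the members (3.83 with the floor and 3.17 with the offset). Without TNT replicate 2, 3 of the 40 rose, 0 fell and 37 did not pass. The 3 highest differences over all 6 arrays among those of adequate signal belonged to UGT87A2 (1.93), UGT74D1 (1.45) and UGT84A3 (1.33), and the 3 lowest to UGT71C1 (-0.48), UGT84A4 (-0.29) and UGT78D1 (-0.22). None of these 6 passed over all 6 arrays. In the comparison without TNT replicate 2, UGT87A2 rose by a log2 difference of 2.54 (limma adjusted p = 0.000344) and UGT74D1 by 1.61 (limma adjusted p = 0.00904). UGT84A3, at 1.55 (limma adjusted p = 0.0544), did not pass, nor did the 3 lowest. UGT74D1, an auxin glucosyltransferase, had signals of 510.7, 295.4 and 334.1 on TNT replicates 1, 2 and 3, so TNT replicate 2 stood near TNT replicate 3, against 111.1, 177.2 and 125.8 on DMF replicates 1, 2 and 3. UGT71B6, an abscisic acid glucosyltransferase, was the remaining gene that rose without TNT replicate 2 (limma adjusted p = 0.0377), but its DMF signals of 0.454 to 1.15 were all under the floor and only 1 TNT array was above it, so the size was not measured; it was named after its values had been seen.

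**Figure D4:**
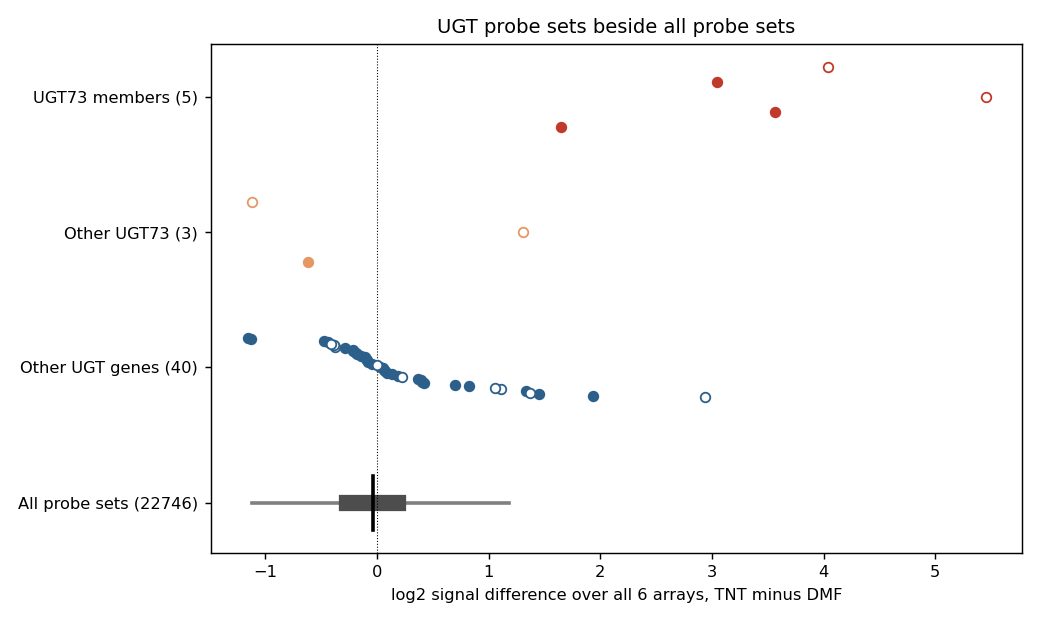
Log2 signal differences over all 6 arrays, TNT minus DMF, for the 5 UGT73 members, the 3 other UGT73 probe sets and the 40 other UGT genes, with the median (black line), middle 50% (thick bar) and central 95% (thin bar) of all 22746 probe sets; open circles are probe sets under the floor on all DMF arrays, whose fitted values are no measure of the fold. The 3 filled members lie at 1.65, 3.04 and 3.56, to the right of the central 95% of all probe sets (-1.12 to 1.18), as do some other UGT genes such as UGT87A2 at 1.93; UGT73C1, at 4.04 here, is at 1.01 with signals set to the floor.

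Of 7 genes of TNT conversion outside the family (reductases, glutathione transferases and a further glucosyltransferase), only GSTU25, a glutathione transferase that conjugates TNT, had a probe set paired with it alone; the other 6 were not analysed here. GSTU25 had signals of 477.8, 27.4 and 528.9 on TNT replicates 1, 2 and 3, against 10.5, 18.2 and 15.9 on DMF replicates 1, 2 and 3. TNT replicates 1 and 3 stood far above TNT replicate 2, which was above all DMF arrays, the order seen in UGT73B5 and the shared probe set. Its log2 difference was 3.72 ± 0.99 (SE) over all 6 arrays (limma adjusted p = 0.588), and it rose by 5.12 without TNT replicate 2 (limma adjusted p = 2.98e-05).

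Genes whose log2 signals followed a member most closely over the 6 arrays were sought among 7309 probe sets of adequate signal that are paired with 1 gene. The likeness is Pearson's r over 6 arrays, a description in which arrays share replicate number and treatment, and 130 of the 7309 exceeded r = 0.95 with UGT73B5. The highest r for UGT73B5 were those of AT3G23605 (0.998), AT4G13180 (0.997), AT3G20340 (0.996), AT4G01870 (0.995) and AT2G41730 (0.995). Their log2 differences over all 6 arrays were 0.58, 2.07, 3.41, 3.67 and 3.88 in that order, beside 3.04 for UGT73B5. A high r thus does not mean a difference of like size. AT2G41730 had signals of 1330, 36.1 and 1356 on TNT replicates 1, 2 and 3, against 32.9, 22.4 and 27.5 on DMF replicates 1, 2 and 3. For UGT73B1 the genes were VPS2.1, AT4G31140, ALDH7B4, IVD and AT2G24860, with r between 0.994 and 0.996, and 147 of the 7309 exceeded r = 0.95. Their log2 differences over all 6 arrays lay between 0.47 and 0.90, beside 1.65 for UGT73B1. ALDH7B4, an aldehyde dehydrogenase, showed the overlap seen in UGT73B1, with 975.4, 394.6 and 883.2 on TNT replicates 1, 2 and 3, against 528.5, 338.9 and 387.5 on DMF replicates 1, 2 and 3.

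Tissue and RNA quality measures moved as follows, and their part in the members' values was not tested. Of 5 root markers, PYK10, EXPA7 and EXPA18 had a probe set paired with them alone, all above the floor on every array, and their summed signal ranged from 2690 to 3268 with TNT and from 2826 to 3441 with DMF. PYK10 makes up nearly all of that sum. EXPA18 had signals of 23.5, 47.4 and 28.9 on TNT replicates 1, 2 and 3, against 65.7, 72.2 and 61.5 on DMF replicates 1, 2 and 3, which do not overlap, and without TNT replicate 2 it fell by a log2 difference of -1.35 (limma adjusted p = 0.0168; 0.594 over all 6 arrays). EXPA7 differed by -0.87 over all 6 arrays and -1.22 without TNT replicate 2 and did not pass, though it was lower with TNT in all 3 pairs. Of 5 shoot markers, PRK and RCA had one, also above the floor, and their sum ranged from 3178 to 3911 with TNT and from 4336 to 4993 with DMF, which do not overlap. The labelled whole plant thus showed both root and shoot transcripts on every array. The log2 ratio of 3′ to 5′ signal of the ubiquitin control was 1.21 ± 0.16 with TNT and 1.66 ± 0.05 with DMF (SD, n = 3 each; exact permutation p = 0.1, the smallest possible), and in the array's other ubiquitin probe sets 0.67 ± 0.05 with TNT and 0.85 ± 0.02 with DMF (exact permutation p = 0.1). For actin it was 2.84 ± 0.09 with TNT and 2.91 ± 0.23 with DMF, and for GAPDH 0.33 ± 0.35 with TNT and 0.39 ± 0.28 with DMF (SD, n = 3 each; exact permutation p = 0.8 for both). By array, GAPDH stood highest in the pair numbered 2, at 0.73 (TNT) and 0.71 (DMF). The pair numbered 1 had 0.08 (TNT) and 0.31 (DMF), and the pair numbered 3 had 0.17 in both. In the array's other GAPDH probe sets the pair numbered 2 did not stand apart, at 0.19 (TNT) and -0.03 (DMF). Its median signals, 48.7 (TNT) and 50.8 (DMF), were the highest of the 6 arrays. Whether these measures bear on the small member differences of that pair was not tested.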

How the data were processed

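RNA of 6 whole-seedling samples was hybridised to 1 ATH1 array each. Per the submitters' processing notes, the authors used MAS5 and GCOS. The deposited values are intensity on a linear scale, 1 signal per probe set; versions, scan settings and the genome build are not given in the sources used here. Each array's mean without its top and bottom 2% was 100.01, so the deposited arrays share 1 scale, and a change in total RNA cannot be seen. Median signals were 40.1 to 50.8, and 73.8% to 80.7% of probe sets exceeded their array's floor. The number of arrays limits the precision.

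Replicate numbers come from the titles. The TNT title without a number was called replicate 1. Of 22810 probe sets 64 controls were left out; 13513 of the rest are paired with 1 gene, 503 with several and 8730 are unnamed here. Symbols follow the TAIR10.1 reference table. TNT was compared with DMF on log2 signals with no offset, no filter and no further normalization, in limma 3.58.1 under R 4.3.3 (lmFit, eBayes with intensity trend, two-sided, Benjamini-Hochberg over 22746 probe sets, threshold 0.05). The floor is the highest Bacillus control probe set of each array. A lower bound sets DMF signals under the floor to it, on means of log2 values. TNT signals are kept as they are, so the value is a bound only where the TNT arrays used exceed their floors. The fit was tested on simulated data. Same-numbered arrays were treated as pairs from the data (given in the text); the labels do not state where the pairing comes from. "Adequate signal" means a mean at or above the 40th percentile, passed by 4 of the 5 members; UGT73C1 did not pass, and UGT73B4 passed only through TNT replicates 1 and 3.

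Named genes were the members, every other probe set annotated UGT73, the TNT conversion list, the 3 highest and 3 lowest other UGT genes of adequate signal, the root and shoot markers, and the 5 genes most like UGT73B5 and UGT73B1. Members, lists and tests were chosen with earlier results of these data known, among them the position of TNT replicate 2. The planned motif and protein comparisons were not made here.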

Additional observations from a re-analysis of the deposited data

How the results depend on the processing

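All 100 member values under 21 alternatives were above 0, as in the comparison of all 6 arrays. No member and no probe set was called with the replicate block, the floor, the offset, the filter at the 40th or 60th percentile, median centring, quantile normalization, eBayes without trend, or 1-gene probe sets only, nor without DMF replicate 1 or 3 or TNT replicate 1 or 3. The replicate block over all 6 arrays left the differences as they were (1.65, 3.56, 5.45, 3.04 and 4.04 for UGT73B1, the UGT73B2 and UGT73B3 probe set, UGT73B4, UGT73B5 and UGT73C1, the order kept below) and gave 0 calls.

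With single arrays left out, calls ranged from 0 to 942, those at least 2-fold from 0 to 632, and members called from 0 to 5. The highest values came without TNT replicate 2; without DMF replicate 2 there were 3 calls, none a member. Differences ranged from 1.16 to 2.43, 2.84 to 4.91, 4.36 to 7.63, 2.30 to 4.25 and 3.28 to 5.27.

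Array weights gave 2939 calls (1160 at least 2-fold) and all 5 members, with differences of 2.12, 4.44, 6.80, 3.91 and 5.00; TNT replicate 2 was weighted 0.315 and DMF replicate 3 6.59. Without both arrays numbered 2, 1164 were called (718 at least 2-fold) with all 5 members, at 2.14, 4.90, 7.70, 4.05 and 5.86; adding the replicate block left 2 pairs, the same differences, all 5 members, and 3177 calls (1038). Without TNT replicate 2, the floor gave 1432 calls (808) and 4 members, at 2.43, 4.91, 3.83 and 4.11, UGT73C1 not called. Signals under the floor are replaced there by that of their array, so their spread is not a measured one. These p-values can therefore be too small. The offset of 16 gave 690 calls (417) and all 5 members, at 2.15, 4.38, 3.17, 3.23 and 1.26. The 40th percentile filter gave 987 calls (593) and 4 members, at 2.43, 4.91, 7.63 and 4.25, with UGT73C1 not tested; UGT73B4 passed that filter only through TNT replicates 1 and 3, so its call there is no support. Signal near the floor limits UGT73B4 and UGT73C1.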
